A study of Mus musculus with 6 samples.

Results

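The insulin-like growth factor (IGF) system was examined through its mRNA levels in NMuMG cells, a mouse mammary gland line of epithelial origin. Of 10 genes listed (Igf2, the receptors Igf1r and Igf2r, the adaptor Irs1 and the binding proteins Igfbp2 to Igfbp7), 9 had a row among the 18512 entries of the count table, and Igfbp2 was not analysed here. The genes were chosen by their place in the IGF system, at a time when their counts in all 3 groups were known. The calls given for them are therefore a description and not independent evidence.

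After 4 h without serum the cells received DMSO as the vehicle, TGF-β alone (5 ng/ml), or the same dose of TGF-β together with 50 uM 2APB (TGF-β+2APB). The RNA-seq data hold 2 replicates of each group, or 6 libraries. 2APB is a small molecule that modulates store-operated calcium entry (SOCE). The study describes it as a blocker of the channels ORAI1 and ORAI2 that raises calcium entry by way of ORAI3. No library of 2APB alone was analysed here. The study's results give a treatment of 24 h, but in its methods the 24 h of 2APB precede TGF-β, and this timing was not settled here. All groups come from the same cell line, so that they describe 1 line in culture.

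IGF1 and IGF2 are secreted ligands that act through the IGF1 receptor, a receptor tyrosine kinase, which phosphorylates the adaptors IRS1 and IRS2 and thereby engages PI3K and AKT. The IGF2 receptor, also known as the cation-independent mannose 6-phosphate receptor, carries IGF2 and lysosomal enzymes to the lysosome and does not signal as the IGF1 receptor does. The IGF binding proteins are secreted carriers that hold the ligands away from the receptor or bring them to it, and proteases release the ligands again. In mammary gland the system is known for supporting growth of the ductal epithelium and survival of its cells, with IGFBP5 known for its rise during involution.

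The libraries held between 71840570 and 79473182 counts. All values were even, so that the smallest count above 0 was 2. Normalized counts are counts scaled by TMM factors to the mean library. Differences were tested by the quasi-likelihood F-test of edgeR across the 13355 entries whose mean reached 20 normalized counts, and a Benjamini-Hochberg FDR of 0.05 or less was called differentially expressed. The study's methods call the replicates biological, without saying whether they came from separate cultures, and p-values measure the spread between these libraries. With TGF-β against DMSO, 7 of 7 tested mesenchymal markers were called higher. Of 6 tested epithelial markers, 2 were called higher (Krt8 and Krt18) and 4 lower. Over all genes tested, 21.8% were called higher and 19.7% lower. The levels of the epithelial markers of the label were mixed. Krt8 had 226934 to 736744 counts and Cdh1, the epithelial cadherin, 35416 to 92780, but Epcam had at most 158 counts and Cldn7 at most 6. A list of 8 hepatocyte markers was also high in DMSO, where it summed to 123004 to 138950 counts with Alb at 27900 to 32124 counts and no gene at 0. It summed to 14216 to 20940 with TGF-β, with Ahsg at 0, and to 8722 to 11768 with TGF-β+2APB, with Ahsg and Fga at 0 in both libraries and Apoa1 at 0 in 1. Of its 7 tested genes, 7 fell with TGF-β. A list of 4 salivary gland markers summed to 30 and 52 counts in DMSO, 6 and 1514 in TGF-β, and 3570 and 5244 in TGF-β+2APB, with Smr3a, Spt1 and Prol1 at 0 in both DMSO libraries and in TGF-β replicate 1. The part of these markers in the results was not tested. In such bulk samples, fewer cells of a type and less RNA per cell cannot be told apart.

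To show the DNA in front of the 4 binding protein genes that passed the filter on low means, the 250 bases before the RefSeq start are printed for Igfbp3, Igfbp4, Igfbp5 and Igfbp7 (GRCm38.p6, gene strand, 5′ to 3′). Capitals mark any of 5 short motifs, searched on both strands: the SMAD box CAGAC, the E-box CAGGTG, the AP-1 site TGANTCA, the GC box GGGCGG and the TATA box TATAAA. None of these motifs contains another.
Igfbp3, chr11:7213924-7214173, minus strand: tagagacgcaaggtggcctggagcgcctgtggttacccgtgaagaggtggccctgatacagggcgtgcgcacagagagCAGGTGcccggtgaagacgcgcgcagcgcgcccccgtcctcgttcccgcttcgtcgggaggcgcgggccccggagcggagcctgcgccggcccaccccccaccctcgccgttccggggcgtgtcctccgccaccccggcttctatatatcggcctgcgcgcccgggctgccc
Igfbp4, chr11:99040994-99041243, plus strand: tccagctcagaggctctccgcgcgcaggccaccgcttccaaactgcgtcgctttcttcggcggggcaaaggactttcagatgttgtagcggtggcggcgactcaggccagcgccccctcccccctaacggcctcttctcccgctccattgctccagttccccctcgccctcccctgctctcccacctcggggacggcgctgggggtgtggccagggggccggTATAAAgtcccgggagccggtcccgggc
Igfbp5, chr1:72874866-72875115, minus strand: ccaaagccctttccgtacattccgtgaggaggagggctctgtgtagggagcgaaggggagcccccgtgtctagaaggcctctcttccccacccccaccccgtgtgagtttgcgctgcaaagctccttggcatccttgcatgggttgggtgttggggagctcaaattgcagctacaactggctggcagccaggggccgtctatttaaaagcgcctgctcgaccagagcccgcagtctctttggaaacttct
Igfbp7, chr5:77408046-77408295, minus strand: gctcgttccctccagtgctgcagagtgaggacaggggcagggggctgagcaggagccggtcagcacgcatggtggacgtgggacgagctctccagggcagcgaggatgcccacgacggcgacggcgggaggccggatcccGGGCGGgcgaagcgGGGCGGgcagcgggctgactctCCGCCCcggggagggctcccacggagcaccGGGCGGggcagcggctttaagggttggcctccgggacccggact

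The Igfbp3 window held 1 E-box, which began 172 bases before the start, and the Igfbp4 window 1 TATA box, 28 bases before the start. The Igfbp7 window held 4 GC boxes, and the Igfbp5 window none of the 5 motifs. None of these 4 windows held the SMAD box. It was present in the windows of Igf1r (1 match), Irs1 (1 match), Igf2r (2 matches) and Igfbp6 (1 match), in 3 of 4 windows of Igf2 and in 1 of 2 windows of Igfbp2. Among 32851 mouse windows of the same length, 42.2% held the SMAD box, 17.2% the E-box, 6.75% the AP-1 site, 32.7% the GC box and 12.4% the TATA box. A match is a description of letters and not a binding site.

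The ligand Igf2 was close to absent. It had 2 and 8 counts in DMSO, 10 and 0 in TGF-β, and 6 and 2 in TGF-β+2APB. The groups overlapped, and the gene was too low to be tested. Igf2 lies on chromosome 7 (142650766 to 142666816, minus strand, GRCm38) and shares exon bases with Gm49394 on the same strand and with Igf2os on the opposite strand, so that its reads may in part not be told apart from theirs. The other ligand gene, Igf1, had 12 and 12 counts in DMSO, 4 and 8 in TGF-β, and 4 and 144 in TGF-β+2APB. Only replicate 2 of TGF-β+2APB was high, and none of the 3 comparisons passed the test (FDR 0.161 to 0.646, edgeR). In the same library Ptprc had 752 and Itgam 1018 counts. A list of 4 leukocyte markers, with Cd3e at 0 in the other 5 libraries, summed to 316 to 454 counts in DMSO, 84 to 152 in TGF-β, and 60 and 1804 in TGF-β+2APB. The part of these cells in the Igf1 value was not tested. A list of 4 endothelial markers summed to 10 to 50 counts in a library, with Kdr and Tek at 0 in 5 of 6 libraries each, and a list of 2 adipocyte markers to 0 to 160.

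Among the receptors, Igf1r rose and Igf2r fell with TGF-β. Igf1r (chromosome 7, 67952827 to 68233668, plus strand) had 14374 and 14164 normalized counts in DMSO, 20755 and 21557 in TGF-β, and 24502 and 25030 in TGF-β+2APB. The 3 groups did not overlap, and DMSO was lowest. With TGF-β the log2 fold change was 0.57 (SE 0.064, FDR 0.00143, edgeR), a 1.48-fold higher level. TGF-β+2APB was 0.23 (SE 0.063) above TGF-β on the log2 scale, which did not pass the test (FDR 0.0626). That difference was called by DESeq2 (adjusted p = 0.000162) and by edgeR without TGF-β replicate 1 (0.20) or without TGF-β replicate 2 (0.25). It was not called in 12 of 16 alternative settings. With only the 4 libraries compared, its FDR was 0.1965 (edgeR). Against DMSO, TGF-β+2APB was higher by 0.80 (SE 0.064, FDR 0.000278).

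Igf2r (chromosome 17, 12682406 to 12769664, minus strand) had 8014 and 8029 normalized counts in DMSO, 5794 and 5170 in TGF-β, and 5537 and 6199 in TGF-β+2APB. Both treated groups lay below DMSO and overlapped each other. The log2 fold change was -0.55 (SE 0.095, FDR 0.00645) with TGF-β and -0.45 (SE 0.095, FDR 0.00981) with TGF-β+2APB against DMSO, and 0.10 (SE 0.095, FDR 0.515) between the treated groups. The fall with TGF-β was not called without DMSO replicate 1 (FDR 0.0559) or DMSO replicate 2 (FDR 0.0547). The fall with TGF-β+2APB was not called without DMSO replicate 1 (FDR 0.0680), DMSO replicate 2 (FDR 0.0685) or TGF-β+2APB replicate 1 (FDR 0.0872).

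The 2 receptor genes thus stood in another ratio after treatment. There were 1.79 and 1.76 Igf1r counts per Igf2r count in DMSO, 3.58 and 4.17 in TGF-β, and 4.43 and 4.04 in TGF-β+2APB. Every treated library was above both DMSO libraries. Insr, which encodes the insulin receptor, had 8946 to 10998 counts in all libraries, and its log2 fold change with TGF-β was -0.25 (SE 0.067, FDR 0.0291). Igf1r counts per Insr count were 1.33 and 1.26 in DMSO, 2.25 and 2.32 in TGF-β, and 2.67 and 2.81 in TGF-β+2APB.

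The adaptor Irs1 (chromosome 1, 82233101 to 82291416, minus strand) rose with TGF-β. It had 3353 and 3361 normalized counts in DMSO, 7030 and 6852 in TGF-β, and 6050 and 6499 in TGF-β+2APB. The groups did not overlap, with TGF-β highest. The log2 fold change was 1.05 (SE 0.073, FDR 0.000283) with TGF-β, a 2.07-fold rise, and 0.90 (SE 0.072, FDR 0.000281) with TGF-β+2APB against DMSO. Between the treated groups it was -0.15 (SE 0.072), which did not pass the test (FDR 0.220). Irs2, the related adaptor, had 2594 and 2650 normalized counts in DMSO, 3345 and 3175 in TGF-β, and 4295 and 4584 in TGF-β+2APB. Irs2 rose with TGF-β by 0.31 (SE 0.071, FDR 0.0166) and again with 2APB by 0.45 (SE 0.070, FDR 0.0140). Irs1 counts per Irs2 count were 1.29 and 1.27 in DMSO, 2.10 and 2.16 in TGF-β, and 1.41 and 1.42 in TGF-β+2APB. Irs1 shares 2822 exon bases with Gm9747 on the opposite strand, and the strand setting of the counts is not given in the sources used here.

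**Figure D1:**
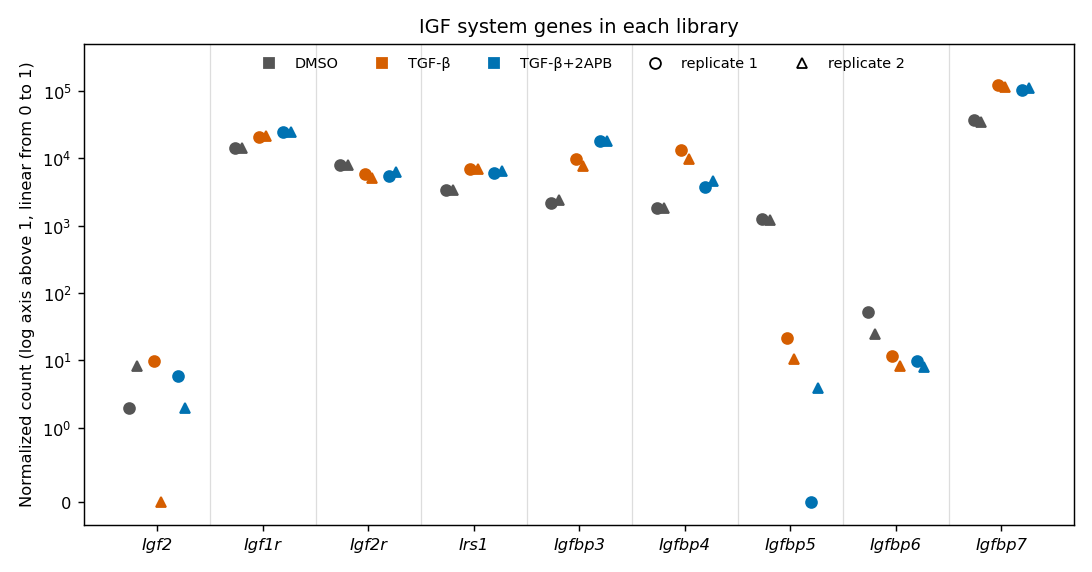
Normalized count of each of the 9 genes (vertical axis, logarithmic above 1 and linear from 0 to 1) in each library, with colours for the groups and symbols for the replicates. Igfbp5 stands at 1241 and 1211 in the DMSO libraries and at or below 21.4 in all others, while Igf2 stays below 10 throughout.

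The binding proteins held the largest changes. Igfbp5 (chromosome 1, 72857932 to 72874884, minus strand), which encodes a carrier that also binds extracellular matrix, was nearly lost. It had 1241 and 1211 normalized counts in DMSO, 21.4 and 10.4 in TGF-β, and 0 and 3.95 in TGF-β+2APB. The 3 groups did not overlap. Summed over replicates, DMSO held 2434 deposited counts, TGF-β 32 and TGF-β+2APB 4. The scaled ratio of DMSO to TGF-β was 76.2, with a 95% interval of 53.9 to 111.7 (46.8 to 133.8 if each even count is halved) that covers counting error only. The ratio of DMSO to TGF-β+2APB was 620.3 (241.9 to 2278, or 171.3 to 5127 from halved counts). On the log2 scale Igfbp5 changed by -6.25 (SE 0.52, FDR 0.000524, edgeR) with TGF-β and by -9.19 (SE 0.66, FDR 0.00019) with TGF-β+2APB against DMSO. With TGF-β it was -6.86 without TGF-β replicate 1 and -5.83 without TGF-β replicate 2. The fitted value against DMSO for TGF-β+2APB depends on the few counts after treatment. It was -8.24 without TGF-β+2APB replicate 1, -13.24 without TGF-β+2APB replicate 2, and -7.60 by DESeq2 with its prior, and it was called in each case.

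The Igfbp5 difference between the treated groups rests on few counts. TGF-β held 8.13 times the level of TGF-β+2APB, with a counting interval of 2.89 to 31.7, and of 1.91 to 72.9 if each even count is halved. The log2 fold change was -2.94 (SE 0.82) and did not pass the edgeR test (FDR 0.0628). It was called by DESeq2 without its fold change prior (adjusted p = 0.0015) and with it, there at a log2 fold change of -1.71 (adjusted p = 0.00142). In edgeR it was called without TGF-β replicate 2 (-3.36) and without TGF-β+2APB replicate 2 (-7.02). It was not called without TGF-β replicate 1 (-2.32) or TGF-β+2APB replicate 1 (-2.02). In 11 of 15 alternative settings it was not called, with an FDR of 0.2049 (edgeR) from only the 4 libraries compared. The hepatocyte markers given above also fell against DMSO in both treated groups. Of their 7 tested genes, 3 were called lower between the treated groups (Fga, Fgb and Serpina1a) and 4 were not called. Over all genes tested, 10.9% were called lower there. After treatment Hnf4a held most of the sum of the hepatocyte markers, with 19628 and 13558 counts in TGF-β and 8574 and 11586 in TGF-β+2APB. Against DMSO, the folds of fall with TGF-β were 2.55 for Hnf4a, 20.9 for Fga, 31.8 for Fgb and 47.7 for Serpina1a. They were 444 for Alb, 704 for Apoa1 and 1005 for Ttr. With TGF-β+2APB they ran from 4.24 (Hnf4a) to 13539 (Fga, with 0 counts). The part of these markers in the Igfbp5 values was not tested.

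Igfbp6 (chromosome 15, 102144362 to 102149511, plus strand), whose product prefers IGF2 over IGF1, was low. It had 53.1 and 24.8 normalized counts in DMSO, 11.7 and 8.31 in TGF-β, and 9.90 and 7.90 in TGF-β+2APB. DMSO was above both treated groups, which overlapped. Its mean was under 20 and it was not tested. Without the filter on low means its log2 fold change was -1.95 (SE 0.54, FDR 0.0455) with TGF-β and -2.12 (SE 0.55, FDR 0.0280) with TGF-β+2APB against DMSO. Igfbp1, a binding protein known from liver, had 10 and 8 counts in DMSO and was listed at 0 in the 4 treated libraries.

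Igfbp3 (chromosome 11, 7206086 to 7213923, minus strand), the main IGF carrier of serum, rose with TGF-β and rose further with 2APB. It had 2205 and 2414 normalized counts in DMSO, 9700 and 7631 in TGF-β, and 18122 and 18334 in TGF-β+2APB. The groups did not overlap. TGF-β against DMSO gave a log2 fold change of 1.91 (SE 0.13, FDR 0.000281), TGF-β+2APB against TGF-β 1.07 (SE 0.13, FDR 0.00706), and TGF-β+2APB against DMSO 2.98 (SE 0.14, FDR 5.33e-05). In folds these were 3.75, 2.10 and 7.89.

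Igfbp4 (chromosome 11, 99041244 to 99054392, plus strand), a carrier known mainly as an inhibitor of IGF action, rose with TGF-β but was lower again with 2APB. It had 1835 and 1827 normalized counts in DMSO, 13279 and 9825 in TGF-β, and 3813 and 4685 in TGF-β+2APB. The groups did not overlap, with TGF-β highest, and the TGF-β replicates lay far apart. The log2 fold change was 2.66 (SE 0.18, FDR 0.000266) with TGF-β, -1.44 (SE 0.17, FDR 0.00703) with TGF-β+2APB against TGF-β, and 1.21 (SE 0.17, FDR 0.00223) with TGF-β+2APB against DMSO. Its level was thus 6.31-fold higher with TGF-β than with DMSO, and 2.72-fold lower with TGF-β+2APB than with TGF-β. The study's discussion names Igfbp4 among drug resistance genes raised in its 2APB data and not by TGF-β by itself. In the counts read here, Igfbp4 was above DMSO in both treated groups and highest with TGF-β alone.

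Igfbp3 and Igfbp4 moved in opposite directions when 2APB was added. Igfbp4 counts per Igfbp3 count were 0.832 and 0.757 in DMSO, 1.37 and 1.29 in TGF-β, and 0.210 and 0.256 in TGF-β+2APB. TGF-β stood above DMSO and TGF-β+2APB below it, with no overlap between groups. This ratio is taken within a library and does not depend on scaling. Both genes kept their direction and their call for TGF-β+2APB against TGF-β in all 16 alternatives, with a highest FDR of 0.0344 for Igfbp3 and 0.0305 for Igfbp4. The summed salivary gland markers rose in both TGF-β+2APB libraries and in TGF-β replicate 2, and their part in these values was not tested.

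**Figure D2:**
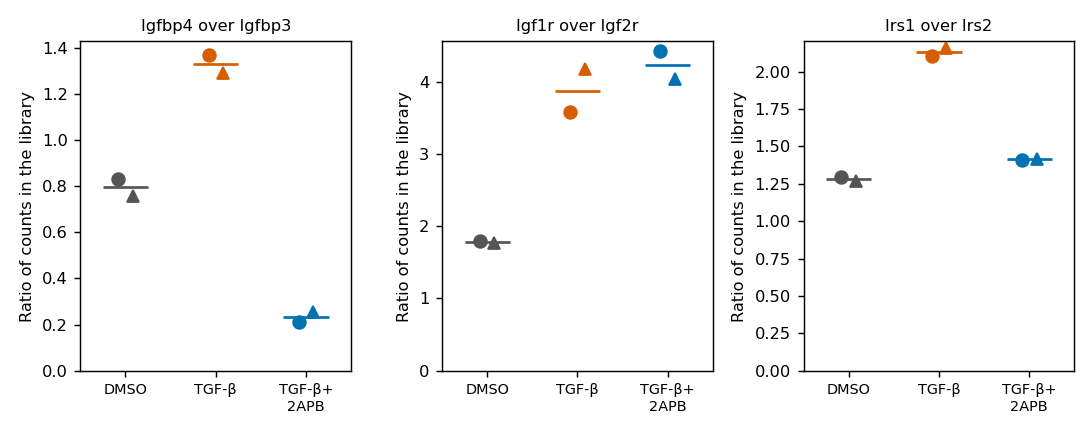
Ratios of counts within each library (vertical axes, from 0) for Igfbp4 over Igfbp3, Igf1r over Igf2r and Irs1 over Irs2, with the mean of the 2 replicates as a line. Igfbp4 over Igfbp3 goes from 0.757 to 0.832 in DMSO up to 1.29 to 1.37 in TGF-β and down to 0.210 to 0.256 in TGF-β+2APB.

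Igfbp7 (chromosome 5, 77349240 to 77408041, minus strand), a secreted relative with low affinity for IGFs, was the most abundant of these genes and rose with TGF-β. It had 36618 and 34586 normalized counts in DMSO, 122509 and 116738 in TGF-β, and 103902 and 110680 in TGF-β+2APB. Both treated groups were far above DMSO. The log2 fold change was 1.75 (SE 0.072, FDR 7.00e-05) with TGF-β and 1.59 (SE 0.072, FDR 5.11e-05) with TGF-β+2APB against DMSO, while -0.16 (SE 0.070, FDR 0.184) between the treated groups did not pass the test. Igfbp7 shares 85 exon bases with Polr2b on the opposite strand, and Polr2b had 9238 to 10474 counts in all libraries.

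**Figure D3:**
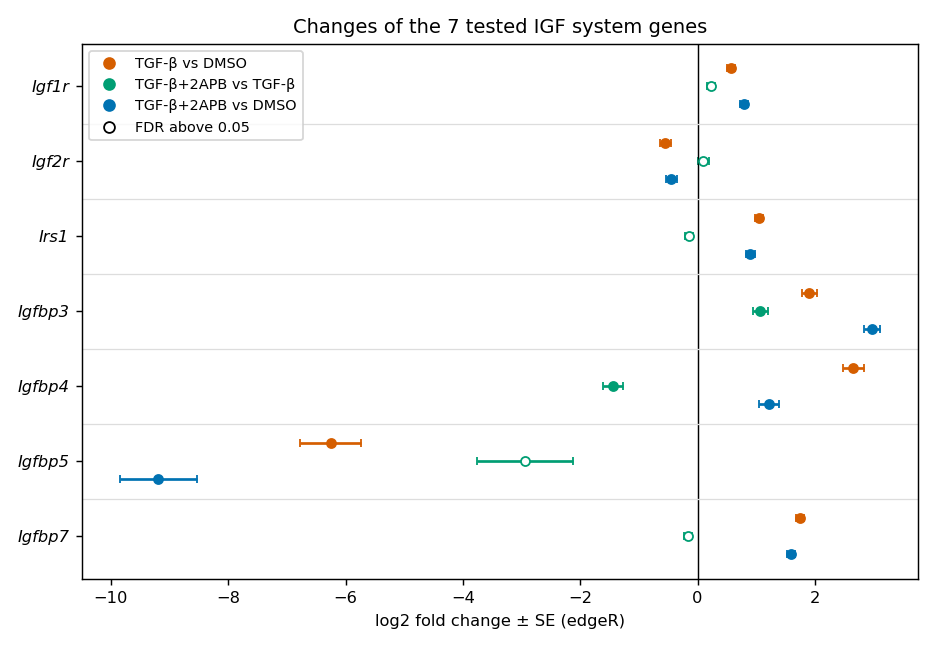
Log2 fold change (horizontal axis, edgeR) with its SE for the 7 tested genes in the 3 comparisons, with open symbols where the FDR was above 0.05. Igfbp3 and Igfbp4 have filled symbols on opposite sides of 0 for TGF-β+2APB against TGF-β (1.07 and -1.44), and Igfbp5 lies farthest from 0.

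Of the 9 genes, 7 passed the filter on low means and were tested. With TGF-β against DMSO, 5 rose (Igf1r, Irs1, Igfbp3, Igfbp4 and Igfbp7) and 2 fell (Igf2r and Igfbp5). Over all genes tested, 41.5% were called in this comparison, 21.8% higher and 19.7% lower. In TGF-β+2APB relative to DMSO the same 7 genes were called, in the directions given for TGF-β, beside 52.7% of all genes tested, 25.6% higher and 27.2% lower. These 2 comparisons share the DMSO libraries. With TGF-β+2APB against TGF-β, 2 of 7 were called, Igfbp3 higher and Igfbp4 lower, beside 17.5% of all genes tested, 6.58% higher and 10.9% lower. The median log2 fold change of the 7 genes was 1.05 with TGF-β, -0.15 with TGF-β+2APB against TGF-β and 0.90 with TGF-β+2APB against DMSO, where the medians over all genes tested were -0.01, -0.0036 and -0.0032. The 7 genes were chosen with these comparisons known, and nothing is read from these counts.

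Levels can be compared between genes only per length. In counts per kb of exon per 1000000 counts, Igfbp7 had 385 ± 15.5 in DMSO, 1294 ± 44.1 in TGF-β and 1160 ± 51.8 in TGF-β+2APB (mean ± SD, n = 2). In DMSO the order below it was Igf2r (11.3), Igf1r (11.1), Igfbp3 (9.65), Igfbp4 (5.42), Irs1 (4.80), Igfbp5 (2.67), Igfbp6 (0.458) and Igf2 (0.0117), with no overlap of replicates between neighbours. In TGF-β it was Igfbp3 (36.2), Igfbp4 (34.2), Igf1r (16.5), Irs1 (9.93), Igf2r (7.70), Igfbp6 (0.118), Igfbp5 (0.0346) and Igf2 (0.0111), and only the replicates of Igfbp3 and Igfbp4 overlapped between neighbours. In TGF-β+2APB it was Igfbp3 (76.1), Igf1r (19.3), Igfbp4 (12.6), Irs1 (8.97), Igf2r (8.24), Igfbp6 (0.105), Igf2 (0.00904) and Igfbp5 (0.0043), where Irs1 overlapped Igf2r and Igf2 overlapped Igfbp5. With n = 2, such an order is a description. It also depends on the exon lengths used, and the annotation behind the counts is not given. In DMSO, Igf1r had more counts than Igf2r (14618 and 13704 against 8150 and 7768) over more exon bases (16791 against 9308).

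On this scale Igfbp3 to Igfbp7 summed to 414 and 393 in DMSO, 1405 and 1324 in TGF-β, and 1211 and 1288 in TGF-β+2APB. Igfbp1 and Igfbp2 were not part of this sum. Igfbp7 took 92.8% to 95.7% of the sum in every library. Igfbp3 took 2.23% and 2.57% in DMSO, 2.88% and 2.41% in TGF-β, and 6.25% and 5.95% in TGF-β+2APB. The share of Igfbp3 was thus highest in the 2 TGF-β+2APB libraries. The share of Igfbp4 was 1.31% and 1.38% in DMSO, 2.80% and 2.20% in TGF-β, and 0.932% and 1.08% in TGF-β+2APB.

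Some binding protein genes lie in pairs in the mouse genome, and the rows beside them were also read. Igfbp2 and Igfbp5 are adjacent on chromosome 1 and point at each other, and Igfbp1 lies 3539 bases from Igfbp3 on chromosome 11. On 1 side of each of Igfbp3, Igfbp4 and Igfbp5, the nearest protein-coding gene of the table was a tensin gene, from a family of adaptors between integrins and actin, and the neighbours were named after their values were seen. Tns1, 1035346 bases from Igfbp5, rose with TGF-β by 1.30 (SE 0.079, FDR 0.000189, edgeR) on the log2 scale, where Igfbp5 fell. Tns3, 1217728 bases from Igfbp3, rose by 1.13 (SE 0.077, FDR 0.000268) as Igfbp3 did. Tns4, 11285 bases from Igfbp4, was low at 20 to 94 counts, and its difference with TGF-β (1.10, SE 0.38) did not pass the test (FDR 0.0640). Top2a, a topoisomerase gene of dividing cells 17054 bases from Igfbp4 on its other side, rose with TGF-β by 0.48 (SE 0.15, FDR 0.0470) and fell by 1.18 (SE 0.15, FDR 0.00797) when 2APB was added. With 2APB, Tns1 (0.55, SE 0.078, FDR 0.0108) and Tns3 (0.34, SE 0.076, FDR 0.0349) rose further. Soat2, 1014 bases from Igfbp6 and known for cholesterol ester synthesis in liver and intestine, fell with TGF-β by 2.32 on the log2 scale (FDR 0.000156).

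Other genes of the pathway were read from a list of 55 genes ordered by role, of which 53 were in the table and 43 were tested. With TGF-β against DMSO, 21 of 43 were called, 9 higher and 12 lower. Between TGF-β+2APB and TGF-β there were 10 calls, 6 higher and 4 lower, and in TGF-β+2APB relative to DMSO 23 calls, 10 higher and 13 lower. Over all genes tested, 41.5%, 17.5% and 52.7% were called in these comparisons. The median log2 fold change of the 43 genes was -0.03, 0.03 and 0.07 in these comparisons. Several counts moved by over 1.5 times when a library was left out. With TGF-β against DMSO there were 9 calls without DMSO replicate 1 and 8 without DMSO replicate 2. With TGF-β+2APB against TGF-β there were 5 without DMSO replicate 1, DMSO replicate 2 or TGF-β+2APB replicate 1, 4 without TGF-β+2APB replicate 2, 16 without TGF-β replicate 1 and 22 without TGF-β replicate 2. With TGF-β+2APB against DMSO there were 15 without DMSO replicate 1, DMSO replicate 2 or TGF-β+2APB replicate 2.

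In a list of 6 genes written for proteases of the binding proteins and their inhibitors, 4 were tested. All 4 were called with TGF-β, 2 higher and 2 lower, where 41.5% of all genes tested were called. Htra1, a secreted serine protease that cleaves IGF binding proteins, had 23.6 and 16.5 normalized counts in DMSO, 242 and 210 in TGF-β, and 794 and 750 in TGF-β+2APB. Htra1 rose by 3.48 (SE 0.22, FDR 0.000215) with TGF-β and by a further 1.77 (SE 0.19, FDR 0.00552) with 2APB on the log2 scale. Stc1, an inhibitor of the protease PAPP-A, had 2679 and 2745 normalized counts in DMSO, 1407 and 1123 in TGF-β, and 41.6 and 96.7 in TGF-β+2APB. Stc1 fell by 1.10 (SE 0.30, FDR 0.0319) with TGF-β, and on the addition of 2APB it fell by 4.19 (SE 0.36, FDR 0.00386). Adamts9 encodes a secreted metalloprotease, and whether it cleaves IGF binding proteins was not examined here. It fell by 1.05 (SE 0.28, FDR 0.0288) with TGF-β and, on the addition of 2APB, fell by 2.39 (SE 0.30, FDR 0.00774). Stc2, the relative of Stc1, rose by 0.55 (SE 0.088, FDR 0.00478) with TGF-β and differed by -0.17 (SE 0.087, FDR 0.233) between the treated groups. Pappa, the protease that cleaves IGFBP4, had 2 counts in TGF-β+2APB replicate 1 and was at 0 in the other 5 libraries. A count of 0 allows up to 3 counts of such a library, for counting error only and if each count is a separate read. If each even count is halved, the bound is wider in deposited counts.

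Among the further ligands, receptors and adaptors, 4 of 7 tested genes were called with TGF-β, 2 higher and 2 lower. Between the treated groups, 2 of 7 were called. The shares called over all genes tested were 41.5% and 17.5%. Grb14, an adaptor that binds the activated insulin receptor and limits its signalling, had 730 and 676 normalized counts in DMSO, 173 and 145 in TGF-β, and 184 and 182 in TGF-β+2APB. It fell by 2.14 (SE 0.16, FDR 0.000339) with TGF-β on the log2 scale. Grb10, a close relative of Grb14, had 2 to 4 counts in the DMSO and TGF-β libraries and 18 and 16 in TGF-β+2APB, too low to be tested. Of the mRNA-binding proteins named for the Igf2 transcript, Igf2bp1 rose by 0.37 (SE 0.066, FDR 0.00727) and Igf2bp3 fell by 0.24 (SE 0.063, FDR 0.0277) with TGF-β. Igf2bp2 gave -0.06 (SE 0.081, FDR 0.565). H19, the imprinted non-coding RNA beside Igf2, had 32 and 16 counts in DMSO, 0 and 6 in TGF-β, and 6 and 6 in TGF-β+2APB.

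In the PI3K, AKT and mTOR arm, 28 genes were tested, of which 3 rose and 7 fell with TGF-β. Between TGF-β+2APB and TGF-β, 3 rose and 1 fell, and in TGF-β+2APB relative to DMSO 5 rose and 8 fell. The 10, 4 and 13 calls were in each case a smaller share than the 41.5%, 17.5% and 52.7% called over all genes tested. Pik3cb, a catalytic subunit of PI3K, rose by 1.16 (SE 0.080, FDR 0.000279) with TGF-β and by a further 0.57 (SE 0.079, FDR 0.0100) with 2APB. Foxo4, a transcription factor held in check by AKT, fell by 1.10 (SE 0.094, FDR 0.000575) with TGF-β and gave -0.04 (SE 0.093, FDR 0.821) between the treated groups.

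**Figure D4:**
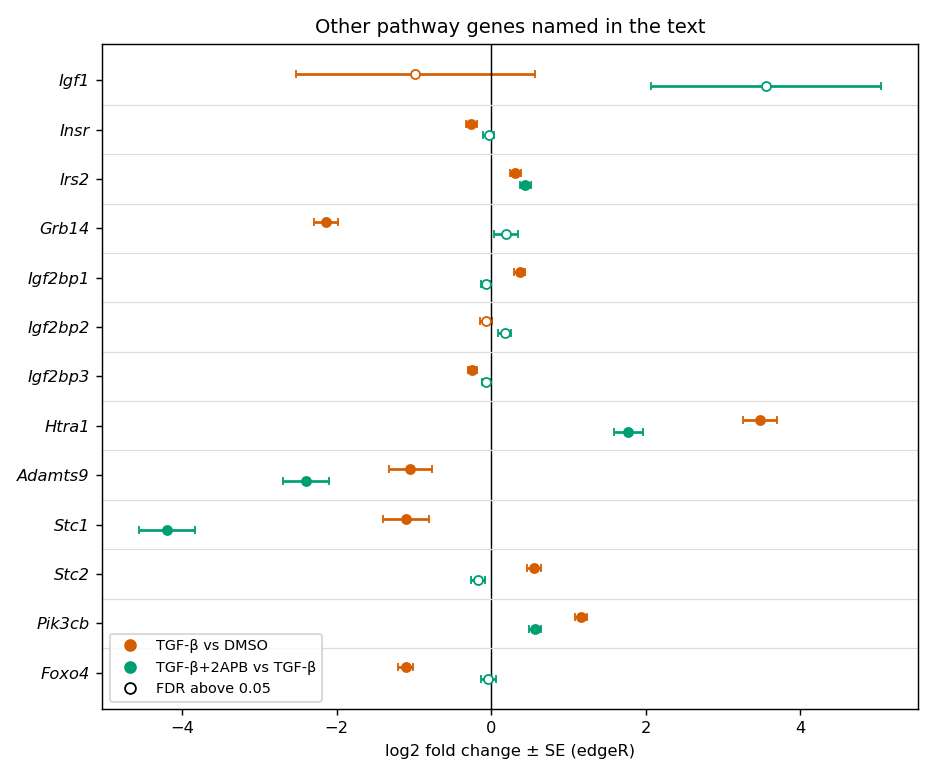
Log2 fold change (horizontal axis, edgeR) with its SE for 13 further pathway genes with TGF-β against DMSO and with TGF-β+2APB against TGF-β, with open symbols where the FDR was above 0.05. Htra1 lies to the right (3.48 and 1.77) and Stc1 to the left (-1.10 and -4.19) in both comparisons, and Igf1 has the widest errors.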

How the data were processed

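RNA selected with oligo-dT was sequenced as single-end reads, which the authors checked with FastQC 0.11.2, aligned with TopHat 2.0.13 and counted on genes with featureCounts. The deposited values are the authors' raw counts per gene, not scaled. The processing notes name mm10, the study's methods hg19, and the symbols are mouse symbols. The annotation, strand setting and treatment of reads with several alignments are not given in the sources used here. Of the entry names, 25 had turned into dates and were not identified.

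Tests used edgeR 4.0.16 in R 4.3.3: TMM scaling, means of at least 20, all 6 libraries in 1 quasi-likelihood fit without covariates, and FDR over all genes tested. The SE is the log2 fold change over the square root of F. Samples were grouped by GEO's labels. Positions and exon lengths came from a GRCm38 annotation, and promoter windows from RefSeq. DESeq2 1.42.0, other scalings and filters, a replicate block, halved counts and left-out libraries were alternatives. The procedure was also run on simulated counts that had the same spread for all genes and groups. That run does not measure its error rate on these data. Python 3.11.15 and matplotlib 3.10.9 were used for plots. Members and lists were chosen with earlier results of these data known. All members are named. Of the pathway genes, 13 are named whatever their values, and the others where called and changed by a log2 value of 1 or more, except 1 gene that is not reported here.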

Additional observations from a re-analysis of the deposited data

How the results depend on the processing

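Under the alternatives no value of the 7 tested genes reversed its direction. The side of the threshold was kept by 320 values, while 8 passed it only in the alternative and 5 only with the settings of the text. These exceptions concern Igf1r and Igfbp5 between the treated groups and Igf2r against DMSO, with the values given above. Igfbp5 could not be fitted under a minimum of 10 counts in every library. Between TGF-β+2APB and TGF-β, 4 of 7 genes were called by DESeq2 without or with its prior, and 2 to 4 with a library left out. Of the 43 other pathway genes, 5 were called in that comparison when the fit used only the 4 libraries compared. With a library left out, 4 to 22 were called there, 8 to 28 with TGF-β against DMSO and 15 to 30 with TGF-β+2APB against DMSO. The causes were not tested. With a library left out, the lone library of its group is assumed to vary like the other groups. The labels do not say that the replicate numbers pair the libraries, so no block was used in the text. Replicate differences correlated by 0.147 (DMSO and TGF-β), -0.458 (DMSO and TGF-β+2APB) and -0.255 (TGF-β and TGF-β+2APB). These correlations do not settle whether libraries were paired. With the replicate number as a block, 6 of the 43 pathway genes were called between the treated groups instead of 10, and 7, 2 and 7 of the 7 IGF genes were called in the 3 comparisons as without it. With the TGF-β+2APB numbers exchanged, a block chosen after seeing the data, 9 of the 43 and again 2 of the 7 were called between the treated groups. Scaling by library size moved the median of all genes by at most 0.064 (log2, lower). At few counts, as for Igf2, Igfbp6 and Igfbp5 after treatment, depth limits the precision.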
